A study of Mus musculus with 13 samples.

Results

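ESR1 binding was examined at 10 genes that are known targets of estradiol (E2) in other tissues: Myc, Ccnd1, Cxcl12, Rara, Xbp1, Ctsd, Tff1, Egr3, Sgk1 and Bcl2. The genes were chosen by name, with earlier results of these data already known. Each gene was given a window of its gene body plus 50 kb on each side, and every ESR1 peak with its summit (the base of highest signal) in a window was counted. The 10 windows held 930 of the 686823 peaks called in 12 libraries. Peaks that overlapped between libraries by at least 1 bp were merged, which left 200 of 228284 regions in the windows. Of these, 39 regions had a peak in at least 6 libraries and 13 in all 12 libraries, whereas 102 came from a single library.

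The cells were primary skeletal muscle fibroblasts from Aromhum mice, which carry the human aromatase gene, the enzyme that makes estrogen from androgen. They were taken from lower abdominal muscle, where the study calls them hernia-associated fibroblasts (HAFs), and all libraries share this genotype. HAFs received vehicle (ethanol and DMSO), E2 at 10 nM, E2 at 10 nM with fulvestrant at 100 nM (E2 + fulvestrant), or fulvestrant at 100 nM alone, with 3 libraries per treatment. Per the study's methods, cells were first starved of serum overnight, and fulvestrant or DMSO was given 3 hr before E2 or ethanol. Chromatin was taken 1 hr after E2 or ethanol and precipitated with an antibody to ERα, the protein of Esr1. The labels do not say whether the libraries of a treatment came from separate mice or cultures, so p-values measure only the spread between these libraries. The peak lists hold no expression values, so the cell type label could not be checked against marker genes.

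ESR1 is a ligand-activated nuclear receptor. On binding E2 it attaches to DNA as a dimer, directly at an estrogen response element (ERE), a palindrome of a pair of half-sites, or through other factors such as AP-1 and SP1. Fulvestrant binds the same pocket and in many cells leads to loss of the receptor protein. The genes divide by role into regulators of growth and cell survival (Myc, Ccnd1, Bcl2 and Sgk1), transcription factors (Rara, Xbp1 and Egr3) and secreted or lysosomal proteins (Cxcl12, Ctsd and Tff1). In breast epithelium several of them are used as readouts of estrogen action.

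The sequences below show the closest response element at the regions on which the results turn, as windows of 61 bases centred on the element. An ERE was scored as GGTCA followed after 3 bases by TGACC, with at most 1 mismatch in its 10 fixed bases, within 100 bp of the region's strongest summit. Capitals mark the 13-base element. All are plus-strand mm10 sequence, and positions in a substitution are counted from 1 at the left end of the element, with the consensus base first.
Sgk1 intron, chr10:21973544-21973604: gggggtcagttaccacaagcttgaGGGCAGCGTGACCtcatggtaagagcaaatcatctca
Bcl2 intron, chr1:106656831-106656891: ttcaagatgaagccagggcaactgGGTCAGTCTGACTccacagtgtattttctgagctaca
Ctsd window, in an intron of Ifitm10, chr7:142349528-142349588: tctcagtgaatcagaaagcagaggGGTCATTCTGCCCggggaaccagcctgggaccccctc
Rara window, intergenic, chr11:98983852-98983912: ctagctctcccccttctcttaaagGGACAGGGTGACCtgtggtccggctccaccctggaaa
Cxcl12 upstream, chr6:117160491-117160551: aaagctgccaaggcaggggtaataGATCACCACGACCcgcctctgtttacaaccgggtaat

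The Sgk1 element differs from the consensus by T3G, the Bcl2 element by C13T, the Ctsd element by A11C and the Rara element by T3A. The Cxcl12 sequence differs at 2 bases, G2A and T9C, and so did not count as an ERE. It is shown because it lies 88 bp from the summit of the strongest region in the Cxcl12 window. Another Bcl2 element, in an exon, made up the 5 regions with an ERE among the 200 (2.50%), against 1.36% of all 228284 regions. None of the 5 was free of mismatches. Among regions with a peak in at least 6 libraries, 1 of 39 regions at these genes held an ERE (2.56%), against 3.38% of all 29321. A sequence with up to 2 mismatches was present in 11 of the 39 (28.2%), against 13.7% of all. A half-site (GGTCA on either strand) was present in 14 of the 39 (35.9%, against 36.6% of all), an AP-1 motif (TGANTCA, either strand) in 2 (5.13%, against 8.31%) and a GC box (GGGCGG on either strand) in 9 (23.1%, against 18.3%).

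The GC boxes lay in several of the promoter regions. The next pair of sequences shows the GC boxes at the promoters of Sgk1 and Rara, which held the strongest region of each window, with GC boxes in capitals.
Sgk1 promoter, chr10:21994165-21994225: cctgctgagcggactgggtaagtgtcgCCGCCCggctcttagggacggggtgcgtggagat
Rara promoter, chr11:98937935-98937995: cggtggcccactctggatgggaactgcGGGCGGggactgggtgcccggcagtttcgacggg

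Depth could be judged only from the lists, which held 34293 to 104571 peaks. E2 replicate 1 and fulvestrant replicate 2 stood apart from the other libraries: 59.4% and 27.9% of their peaks lay mainly in soft-masked repeats, against 5.57% to 7.79% in the other 10, and they had the most peaks (104571 and 80754). Of the 102 single-library regions at these genes, 25 came from E2 replicate 1 and 36 from fulvestrant replicate 2. Several results that rest on these libraries are therefore also given without E2 replicate 1 or without both. At a given region, binding in more cells and stronger binding per cell cannot be told apart.

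All genes except Tff1 had peaks in every library. The number of peaks in a window ran from 16 to 31 at Rara, 6 to 15 at Sgk1, 4 to 16 at Egr3, 5 to 11 at Myc, 4 to 11 at Bcl2, 3 to 9 at Xbp1, 2 to 20 at Ctsd, 1 to 11 at Ccnd1 and 1 to 5 at Cxcl12. Per 100 kb of window, the mean over the 12 libraries was 14.6 peaks at Rara, 8.70 at Egr3, 7.78 at Myc, 5.94 at Xbp1, 5.65 at Ctsd, 4.94 at Sgk1, 4.02 at Ccnd1, 2.81 at Cxcl12 and 2.72 at Bcl2. Tff1, which encodes the trefoil peptide used as a marker of estrogen action in breast cancer cells, stood at 0.241. Its 3 peaks came 1 from E2 replicate 1 and 2 from fulvestrant replicate 2, and none of the other 10 libraries had a peak there. No peak lay within 1 kb of the Tff1 transcription start.

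**Figure D1:**
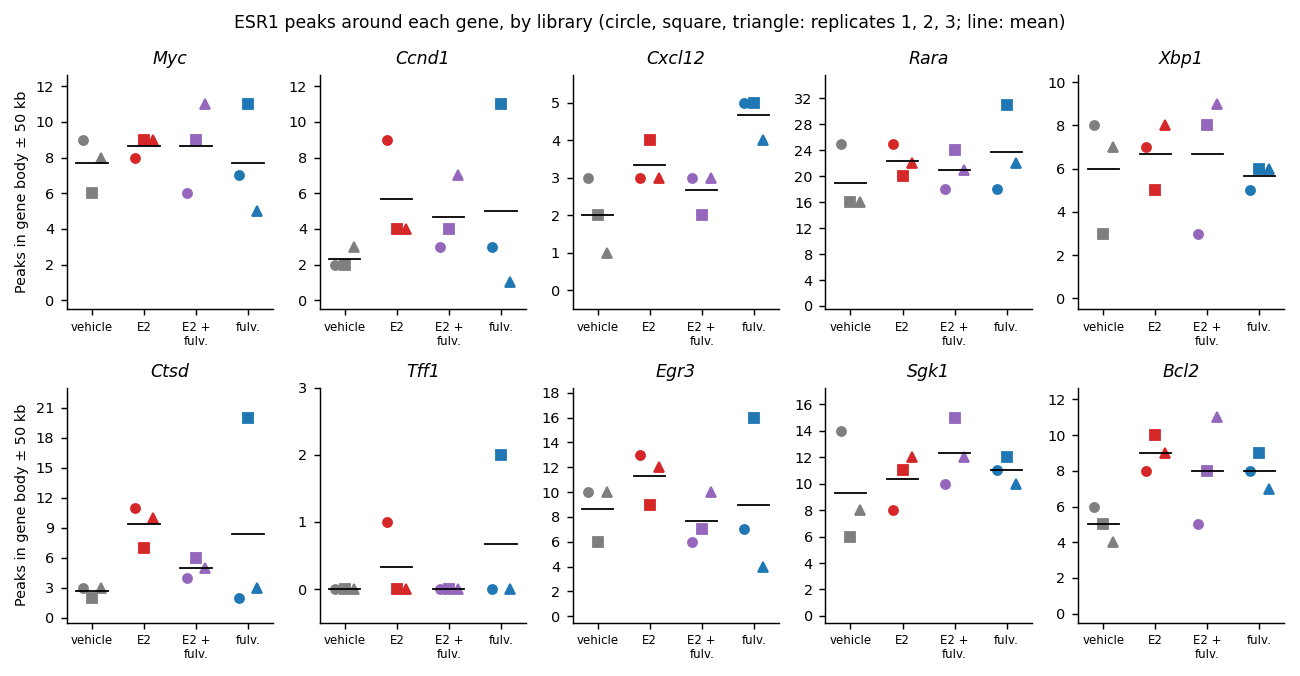
Number of ESR1 peaks in each gene's window (vertical axis) by treatment (horizontal axis), with 1 point per library, the marker shape giving the replicate and the line the mean of 3 libraries. E2 libraries sit above all vehicle libraries at Bcl2, Ctsd and Ccnd1, and Tff1 has no peak in 10 of the 12 libraries.

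The E2 against vehicle comparison asks whether the hormone adds ESR1 peaks around these genes. At Ctsd, which encodes the lysosomal protease cathepsin D, 3, 2 and 3 peaks were called with vehicle against 11, 7 and 10 with E2. At Bcl2, the inhibitor of apoptosis, 6, 5 and 4 peaks were called with vehicle against 8, 10 and 9 with E2. At Ccnd1, which encodes a cyclin that drives entry into the cell cycle, 2, 2 and 3 peaks were called with vehicle against 9, 4 and 4 with E2. In these 3 of 10 windows every E2 count was above every vehicle count, as was so for 16.1% of the 21533 protein-coding genes compared. The same 3 genes separated without E2 replicate 1, when 27.6% of all 18273 genes compared did so, a share close to that of the set. No window had every E2 count below every vehicle count.

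The E2 lists were longer than the vehicle lists, and the separation changed with the scaling. Scaled to 10000 peaks of each list, vehicle libraries had 14.9 ± 0.825 peaks in the 10 windows together, E2 libraries 11.6 ± 2.33, E2 + fulvestrant libraries 14.6 ± 1.5 and fulvestrant libraries 14.8 ± 1.06 (SD, n = 3). On that scale 1 of the 10 genes (Ctsd) separated with E2 above vehicle, against 3.8% of all genes, and 3 (Rara, Egr3 and Myc) with E2 below, against 14.1%. Over all genes too, the more frequent direction turned with the scaling. The scaled comparison was not repeated without E2 replicate 1. Among 16 other estrogen targets (15 matched by symbol, among them Pgr, Greb1 and Igf1), 7 had every raw E2 count above every vehicle count. When scaled, 4 of the 15 had every E2 value above every vehicle value, and 1 had every E2 value below.

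With E2 + fulvestrant, the Ctsd window held 4, 6 and 5 peaks, all below the 3 E2 counts. Ctsd was the only 1 of the 10 genes with every E2 count above every E2 + fulvestrant count, against 7.57% of 21553 genes, and 2 of the 15 other targets did so. Bcl2 held 5, 8 and 11 peaks with E2 + fulvestrant and Ccnd1 3, 4 and 7, which overlap the E2 counts. With fulvestrant alone, Bcl2 (8, 9 and 7 peaks) and Cxcl12 (5, 5 and 4) were above every vehicle library, the latter against 3, 2 and 1 peaks. This separation held in 4.38% of 20466 genes, in 2 of the 10 genes and in 0 of the 15 other targets. No region at these genes, however, had a peak in all fulvestrant libraries and in no vehicle library. Ctsd held 2, 20 and 3 peaks with fulvestrant and Ccnd1 3, 11 and 1, with fulvestrant replicate 2 the highest at both. Cxcl12 encodes the stromal chemokine that binds CXCR4, and its counts with fulvestrant also lay at or above those with E2 (3, 4 and 3). When both E2 treatments (6 libraries) were pooled and compared with the 6 libraries that received no E2, the peak number passed the threshold at 0 of 10 genes and at 0 of 21646 genes tested (exact permutation test, two-sided, Benjamini-Hochberg adjusted; 756 genes and 0 of the 10 had an unadjusted p under 0.05). The largest mean difference was at Bcl2, 8.5 against 6.5 peaks (exact permutation p = 0.147).

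ESR1 peaks at the genes' own starts were found under all 4 treatments. Myc, Rara, Xbp1, Ctsd and Sgk1 each had a peak within 1 kb of an annotated transcription start in all 12 libraries, and Cxcl12 in 11, with vehicle replicate 3 lacking it. Bcl2 had one in 5 libraries, Egr3 in 3 and Ccnd1 in 2. The best promoter peak ranked between 326 and 4340 at Sgk1, 457 and 6562 at Xbp1, 576 and 7859 at Rara, 1665 and 12067 at Ctsd and 2648 and 9110 at Myc, where 1 is the peak with the largest −log10 q of a library. Every list held a peak at these 5 promoters, whether or not E2 was given.

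The strongest region of each window, by the mean over the 12 libraries of the rank as a percentage of the list (the rank percentile, 100 where a library had no peak), was at the gene's own start for 5 of the genes. At Sgk1, a kinase induced by steroids and serum, this was chr10:21992923-21996901 (mean percentile 3.48), 377 bp upstream of a start. At Xbp1, the transcription factor of the unfolded protein response, it was chr11:5519726-5522231 (3.99). At Rara, a retinoic acid receptor, it was chr11:98935695-98945996 (6.19), a broad region in which several peaks ran together. At Myc it was chr15:61983097-61988377 (9.87), followed closely by the start of the noncoding gene Pvt1 at chr15:62037419-62040478 (10.7). At Ctsd it was chr7:142385677-142388399 (12.4).

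In 3 other windows the strongest region belonged to a neighbour. In the Bcl2 window it was chr1:106758610-106760737 (15.5), 282 bp inside Kdsr, an enzyme of sphingolipid synthesis. In the Egr3 window it was chr14:70099296-70101009 (23.7), 256 bp upstream of Bin3, 22.5 kb from the start of Egr3 itself, an immediate-early zinc finger factor. In the Ccnd1 window it was chr7:144914581-144915964 (25.5), 151 bp upstream of LTO1 and 24.9 kb downstream of the Ccnd1 start. The strongest of the Tff1 window, in an exon of Abcg1, was a peak of fulvestrant replicate 2 alone (rank 42215, fold 3.36). Of the 13 regions present in all 12 libraries, 11 lay within 1 kb of a transcription start, 6 of them a start of the gene itself. Over all 200 regions, 35 lay within 1 kb of a start, 91 in introns, 58 between genes and 16 in exons.

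**Figure D2:**
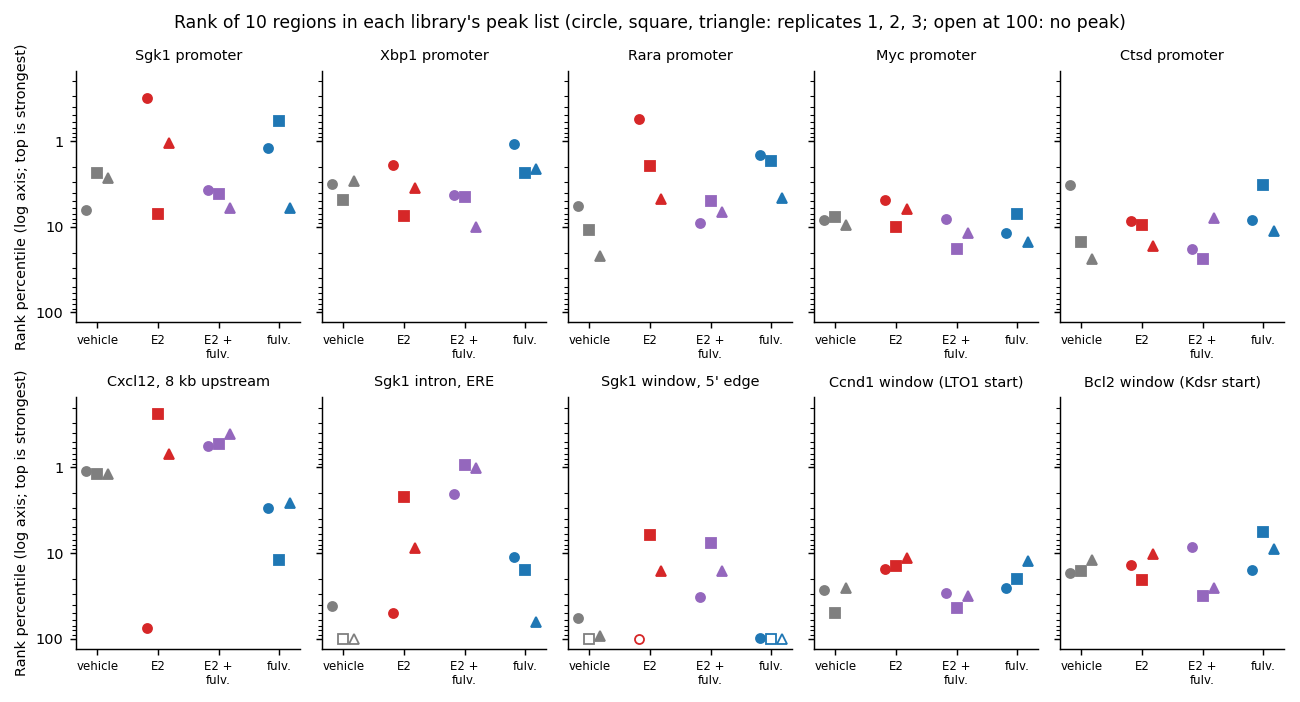
Rank percentile of 10 regions in each library's peak list (vertical axis, logarithmic, with the strongest at the top) by treatment, with 1 point per library and open points at 100 where a library had no peak. The 5 promoters have a peak in all 12 libraries, whereas E2 replicates 2 and 3 and the E2 + fulvestrant libraries stand above the rest at the Sgk1 intron and the region upstream of Cxcl12.

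The strongest region of the Cxcl12 window was not at the gene's own start. It lay at chr6:117159755-117161049, between genes, 8.10 kb upstream of the Cxcl12 start and 340 bp upstream of the noncoding D030044L04Rik. Its rank was 564, 408 and 474 with vehicle, 77976, 144 and 479 with E2, 231, 274 and 271 with E2 + fulvestrant, and 1253, 9696 and 1180 with fulvestrant. The fold enrichment over the local background was 10.0, 8.87 and 9.32 with vehicle, 3.48, 26.1 and 16 with E2, 12.3, 17.6 and 18.7 with E2 + fulvestrant and 9.81, 5.84 and 7.87 with fulvestrant. All libraries given E2 except E2 replicate 1 had a higher fold than all libraries not given E2.

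The mean percentile was 12.8 with and 3.50 without E2 in all 12 libraries (exact permutation p = 1, adjusted p = 1), since E2 replicate 1 stood at 74.6. Without that library, the 5 libraries given E2 ranked above all 6 others, a difference of -3.01 percentile points (exact permutation p = 0.00433, the smallest the design allows, adjusted p = 0.0686). With fulvestrant replicate 2 left out as well, the difference was -1.31 (exact permutation p = 0.00794, adjusted p = 0.111). Each fulvestrant library ranked lower than each vehicle library (2.95, 12 and 2.58 against 1.1, 1.19 and 1.19; exact permutation p = 0.1, the smallest for 3 against 3). That order held for 1 of the 39 regions at these genes (2.56%), against 2.7% of all 29321.

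The region at Sgk1 that holds the ERE lay at chr10:21972978-21974650 in an intron of the longest annotated isoforms, 5.05 kb upstream of the nearest Sgk1 start and 21.0 kb upstream of the start used at the promoter region. It was the only region at these genes with an ERE and peaks in at least 6 libraries. Vehicle replicate 1 had a peak of rank 21064, and the other vehicle libraries had none. E2 replicates 1 to 3 ranked it 52068, 1358 and 6012, E2 + fulvestrant 833, 472 and 668, and fulvestrant 4659, 12659 and 29254. Fold enrichment was 2.79 in vehicle replicate 1, 4.00, 7.86 and 5.28 with E2, 6.83, 8.28 and 8.42 with E2 + fulvestrant and 4.15, 3.59 and 2.23 with fulvestrant.

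The highest values were thus those of E2 + fulvestrant and of E2 replicate 2. The fulvestrant libraries overlapped vehicle, since fulvestrant replicate 3 had a lower fold and rank than vehicle replicate 1. The E2 replicate 1 peak used lay 936 bp from the ERE, and the peak of that library at the ERE ranked 81097 with a fold of 2.91. In the other 9 libraries with a peak, the best peak's summit lay 14 to 122 bp from the centre of the element. The mean percentile was 10.8 ± 19.3 with E2 and 55.3 ± 39.5 without (SD, n = 6 each; exact permutation p = 0.0238, adjusted p = 0.548). With E2 replicate 1 left out, the groups did not overlap (exact permutation p = 0.00433, adjusted p = 0.0686). With fulvestrant replicate 2 left out as well, the adjusted p was 0.111 (exact permutation p = 0.00794).

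The fold enrichment at this region was also the only value at these genes to pass a test adjusted over all regions, and it did so in an alternative alone. When regions with a peak in at least 9 libraries were fitted by limma, E2 given against not gave a log2 difference of 0.92 ± 0.26 (SE; adjusted p = 0.0363, 10 libraries with a peak), and 4.05% of 18908 regions passed in that fit. The vehicle libraries entered that fit through the single peak of replicate 1, which carried as much weight as the fulvestrant libraries together, and libraries without a peak did not count. The region was not in the fit of regions present in all 12 libraries.

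A further Sgk1 region, chr10:21833209-21834774, lay in an intron of the noncoding Platr6, 48.3 kb upstream of the outermost Sgk1 start. It was named for its unadjusted p, after its values were seen. It ranked 29132 and 37240 in vehicle replicates 1 and 3, was absent in replicate 2, ranked 3722 and 11104 in E2 replicates 2 and 3, was absent in replicate 1, ranked 13351, 3868 and 10834 with E2 + fulvestrant and 42208 in fulvestrant replicate 1, and was absent in the other fulvestrant libraries. The mean percentile was 29.8 ± 35.7 with E2 and 91.6 ± 17.2 without (SD, n = 6 each; exact permutation p = 0.0152, adjusted p = 0.548). Here too the groups did not overlap once E2 replicate 1 was left out (exact permutation p = 0.00433, adjusted p = 0.0686). The adjusted p was 0.111 without fulvestrant replicate 2 as well (exact permutation p = 0.00794).

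By contrast, the Sgk1 promoter ranked 3270, 809 and 1084 with vehicle, 326, 4340 and 716 with E2, 1530, 2096 and 4029 with E2 + fulvestrant and 506, 475 and 2792 with fulvestrant. All 4 treatments overlapped there, with mean percentiles of 3.74 with E2 and 3.22 without (exact permutation p = 0.727).

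**Figure D3:**
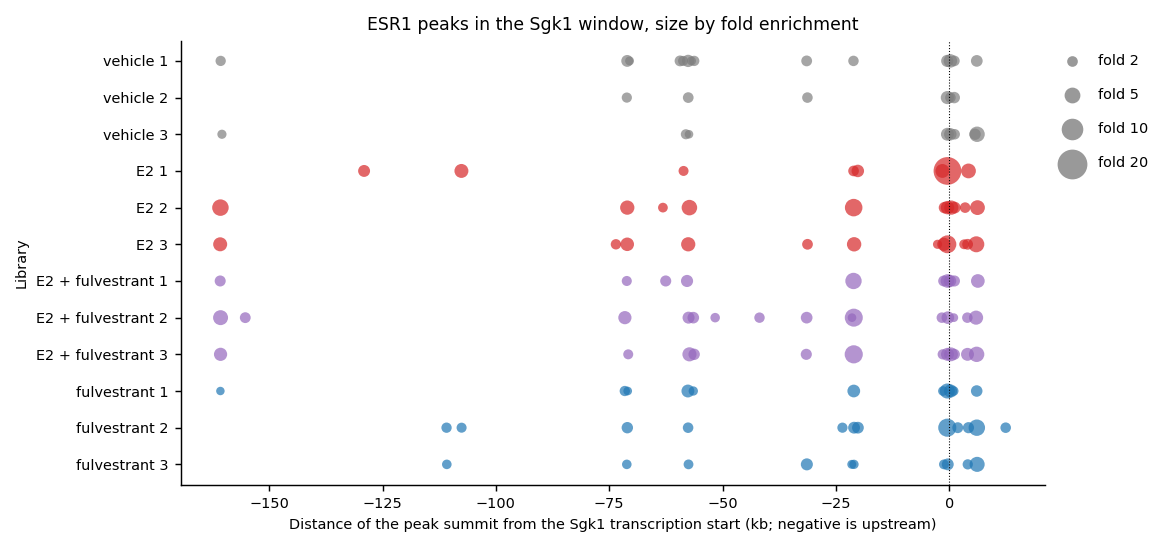
Summits of ESR1 peaks in the Sgk1 window by distance from the Sgk1 transcription start (horizontal axis, kb, upstream negative), 1 row per library, with the area of each point proportional to its fold enrichment. The promoter is marked in all 12 libraries, and at 21.0 kb and near 160.8 kb upstream the larger points are in E2 replicates 2 and 3 and in E2 + fulvestrant.

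The Bcl2 element lay in an intron, in chr1:106656437-106657381, 56.2 kb downstream of a Bcl2 start. Peaks were present in E2 replicates 2 and 3 (rank 3468 and 6923, fold 6.77 and 6.53) and E2 + fulvestrant replicates 2 and 3 (rank 15635 and 5983, fold 3.71 and 5.56). No library without E2 had a peak there, nor did E2 replicate 1 and E2 + fulvestrant replicate 1. The summits lay 30 to 73 bp from the centre of the element. This region was named after its values were seen, and with 4 libraries it did not enter the rank test. The same 4 libraries alone also had a peak at chr15:61998809-61999710 in the Myc window, with folds of 2.45 to 2.99. No region of the Myc window held an ERE. The share of all regions with this pattern was not counted. The Ctsd element was in peaks of vehicle replicate 3 (fold 2.23) and E2 + fulvestrant replicate 2 (fold 2.54) only, and the Rara element in a peak of fulvestrant replicate 2 only.

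A set of 3 regions had a peak in all 3 E2 libraries and in no vehicle library. They were 3 of the 140 regions at these genes seen in either treatment (2.14%), against 0.454% of all 172923. The first lay in an exon of Sgk1 (chr10:21997799-21999167) and ranked 24333, 40237 and 41177 with E2. It also had peaks in 2 E2 + fulvestrant and 2 fulvestrant libraries. The second, chr7:142433497-142434219, lay in the Ctsd window 45.7 kb from the gene and 1232 bp upstream of Syt8. It ranked 30150, 20164 and 47833 with E2 and also had a peak in fulvestrant replicate 2. The third, chr7:144943070-144943515, lay 3.44 kb upstream of Ccnd1 and ranked 82135, 35343 and 43827 with E2, with no peak in any other library.

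The Ctsd and Ccnd1 regions were also absent from all E2 + fulvestrant libraries, 2 of 148 regions compared, against 0.262% of all 180297. The percentiles of the 3 regions with E2 ran from 23.3 to 78.5. Without E2 replicate 1, 9 regions had peaks in both E2 and no vehicle libraries (9.18% of 98, against 8.35% of all 89807), and 5 had peaks in both E2 and no E2 + fulvestrant libraries (4.85% of 103, against 3.6% of all 97427). No region at these genes was present in all vehicle and no E2 libraries, in all E2 + fulvestrant and no E2 libraries, or in all libraries of fulvestrant or vehicle and none of the other. Over all regions, 37, 167, 328 and 211 regions did so.

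Over the set, the share of regions that ranked higher with E2 was no larger than elsewhere. Of the 39 regions with peaks in at least 6 libraries, 23 ranked higher with E2 (59.0%), against 63.7% of all 29321, and the median difference in percentile was -1.53 against -4.83. No region at these genes or elsewhere passed the exact permutation test after adjustment (0 of 29321; 2282 had an unadjusted p under 0.05). The smallest p this test can give is 0.00216, reached toward E2 by 80 regions. A pass after adjustment over so many regions needed far more of them at that floor, so the 0 does not show that no region changed. Toward E2, 3 of the 39 had an unadjusted p under 0.05 (7.69%), against 6.7% of all. They were both Sgk1 regions above and chr14:70120604-70122020 in an intron of Bin3, 44.4 kb from the Egr3 start (63.5 against 95.1, exact permutation p = 0.0411, adjusted p = 0.604). With E2 replicate 1 left out, 5 of 41 regions had an unadjusted exact permutation p under 0.05 toward E2 (12.2%), against 5288 of all 28942. In 3 of the 41 (7.32%), all 5 libraries given E2 ranked above all 6 others, against 6.08% of all. The share ranked higher with E2 was then 65.9%, against 67.5% of all, and the median difference was -3.62 against -7.42.

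**Figure D4:**
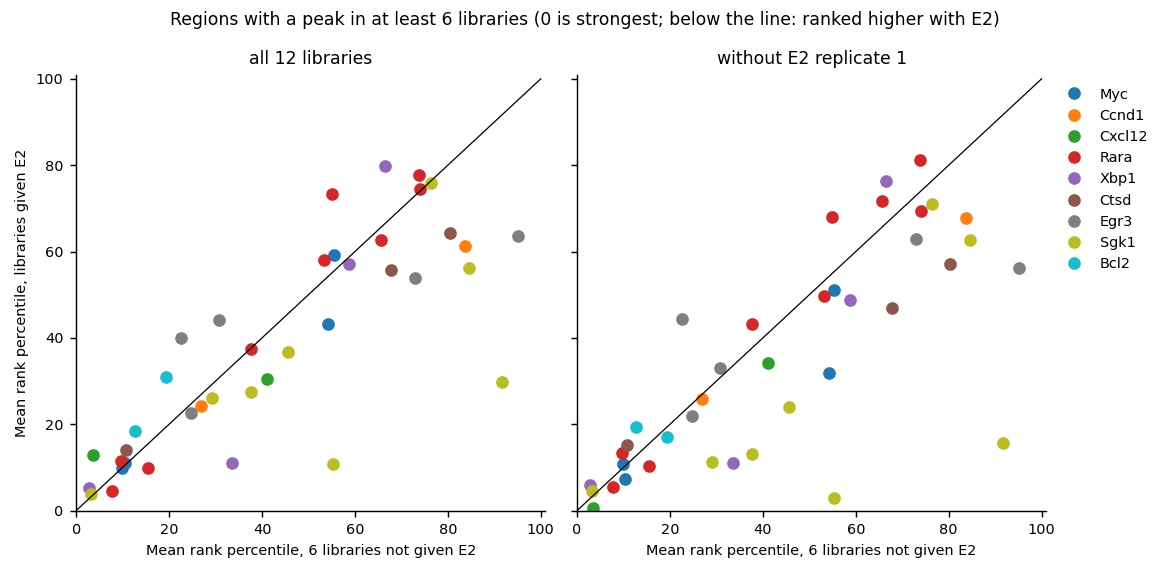
Mean rank percentile of the regions with a peak in at least 6 libraries, with E2 given (vertical axis) against not given (horizontal axis), coloured by gene, for all 12 libraries (left) and without E2 replicate 1 (right). Points below the line ranked higher with E2. The regions far below it are the Sgk1 regions with mean percentiles of 10.8 against 55.3 and 29.8 against 91.6.

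Fold enrichment in the 13 regions present in all 12 libraries gave the same picture. By limma on quantile-normalised log2 fold, 0 of the 13 passed for E2 given against not (smallest adjusted p = 0.674; 1 had an unadjusted p under 0.05), against 0.345% of all 7816 regions, all of them higher with E2. The share over all regions depended on the libraries that stand apart. Without E2 replicate 1, 0 of 18 regions at these genes passed, against 5.56% of all 10463. Without both libraries, 0 of 19 passed, against 7.77% of all 12343. None passed for E2 against vehicle, E2 against E2 + fulvestrant or fulvestrant against vehicle (smallest adjusted p = 0.728, 0.916 and 0.999). The median log2 difference with E2 was -0.01 over the 13 and -0.02 over all 7816. The largest was at chr14:70095160-70096861 between Egr3 and Bin3, a region in soft-masked sequence for 50.7% of its summit window, where the log2 difference was -0.39 ± 0.18 (SE; adjusted p = 0.674). At the Myc promoter it was -0.02 ± 0.14 and at the Sgk1 promoter -0.01 ± 0.16 (adjusted p = 0.997 for both).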

How the data were processed

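ESR1 ChIP was measured in 12 libraries. The input sample was not used here. Per the labels, the authors used Trimmomatic 0.39, Bowtie2, Picard 2.21.4 and MACS2 2.2.71 on mm10, and the study's methods give single-end reads and removal of duplicates with Picard before peak calling. The deposited narrowPeak lists give, per peak, the fold enrichment (a ratio to the local background) and −log10 q, each called per library, and 5.64% to 26.1% of the peaks of a list have q above 0.05. Genes are from GENCODE vM21, and sequence is from RefSeq's GRCm38.p6, which matched all peak coordinates.

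Peaks were ranked by −log10 q within a library. Regions with at least 6 libraries were tested by exact permutation of the 6 libraries given E2 and the 6 not given (924 arrangements, two-sided), and log2 fold in regions present in all 12 libraries by limma 3.58.1 after quantile normalisation, all Benjamini-Hochberg adjusted over all regions at 0.05. Both tests were checked on simulated data. Regions were named if strongest in a window, if they held an ERE in at least 6 libraries, or if they separated treatments, and others are stated as chosen after their values were seen. The members and lists were chosen with earlier results of these data known. Alternatives were window size, scaling, stricter q, removal of repeat-masked peaks, regions built from summits, motif criteria, the replicate block and leaving out libraries. The authors' count-based comparison needs reads and was not repeated. Labels give no batch, although the study's methods report a limma step against batch effects in the ChIP-seq data.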

Additional observations from a re-analysis of the deposited data

Results flagged for a closer look

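Among 23 values tested for an interaction of E2 and fulvestrant (13 regions and 10 peak numbers, exact permutation over 924 splits, unadjusted), 3 had a p under 0.05. The splits regroup all 12 libraries into 6 and 6, so the p assumes that neither E2 nor fulvestrant alone shifts the value. It is thus not a p for the interaction by itself. At the region upstream of LTO1 in the Ccnd1 window, mean percentiles were 34.3 with vehicle, 13.6 with E2, 34.7 with E2 + fulvestrant and 19.3 with fulvestrant. The difference of differences was -36.1 points (exact permutation p = 0.00216, the smallest this test can give). In log2 fold, limma did not call this region for E2 against vehicle (adjusted p = 0.882), E2 against E2 + fulvestrant (0.916) or fulvestrant against vehicle (0.999). At the Rara promoter the means were 12.9, 2.41, 6.84 and 2.61, a difference of differences of -14.7 points (exact permutation p = 0.00216). The Rara promoter was not called by limma for the same contrasts either (adjusted p = 0.728, 0.958 and 0.999). At both, every E2 and every fulvestrant library ranked above every vehicle and every E2 + fulvestrant library, as at 0.505% of all 29321 regions. The Cxcl12 peak number was 2, 3.33, 2.67 and 4.67, a difference of differences of 3.33 peaks (exact permutation p = 0.0216). Without E2 replicate 1 and fulvestrant replicate 2 the values were -37.2, -13.3 and 3.33. The causes were not tested.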

How the results depend on the processing

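Peak lists carry no read depth, so a missing peak cannot be told from one too weak to call, and 3 libraries against 3 cannot reach p under 0.1. In the permutation tests of 6 libraries against 6, p cannot go below 0.00216. A pass after adjustment over all genes or regions therefore needs many of them at that floor. Of 357 recomputed counts, 316 stayed within 1.5 times the reported count, and the cause of the changes was not tested. Some of the peak-number counts could not change, because the library left out took no part in that comparison. Windows with every E2 count above every vehicle count numbered 1 with peaks scaled per 10000 (3 below) and 5 with q at most 0.05, and 3 to 5 with 1 library left out (5 without vehicle replicate 1). For E2 above E2 + fulvestrant they numbered 0 with 10 kb or 100 kb flanks and when scaled (1 below), 4 with −log10 q of at least 10, and 1 to 2 with 1 library left out (2 without E2 replicate 2 or E2 + fulvestrant replicate 3). For fulvestrant above vehicle they numbered 1 with 10 kb or 100 kb flanks, when scaled or without repeat-masked peaks, 0 with −log10 q of at least 10, and 2 to 4 with 1 library left out (4 without vehicle replicate 1); fulvestrant below vehicle gave 1 when scaled and 0 to 1 with 1 library left out (1 without vehicle replicate 2).

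Regions in all E2 and no vehicle libraries numbered 5 when built from summits, 9 without both libraries that stand apart (chosen after seeing the data), and 2 to 9 with 1 library left out (9 without E2 replicate 1, 6 without E2 replicate 2 or vehicle replicate 1, 2 without E2 + fulvestrant replicate 3). Those in all E2 and no E2 + fulvestrant libraries numbered 1 with −log10 q of at least 10, 5 without both libraries, and 2 to 5 with 1 left out (5 without E2 replicate 1 or 2). Vehicle without E2 gave 1 from summits and 0 to 1, E2 + fulvestrant without E2 0 to 1 (1 without E2 + fulvestrant replicate 2), vehicle without fulvestrant 0 to 1, and fulvestrant without vehicle 1 with −log10 q of at least 10 and 0 to 2 (2 without vehicle replicate 1 or fulvestrant replicate 1); vehicle replicate 1 gave both other values of 1. Regions with an ERE numbered 2 with −log10 q of at least 10, 0 with no mismatch, 0 within 50 bp, 3 without both libraries and 3 to 5 with 1 left out (3 without fulvestrant replicate 2). By limma, the fit of at least 9 libraries called 1 of 30 regions at these genes and 766 of all 18908, against 0 and 27. Without E2 replicate 1 limma called 0 of 18 and 582 of all 10463, and without both libraries 0 of 19 and 959 of all 12343.

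With the replicate block, no gene window or region at these genes passed (0 called by peak number, fold or rank). The Sgk1 regions had unadjusted exact permutation p = 0.0278 (difference -61.8) and p = 0.0463 (-44.5), and the Egr3 region p = 0.0556 (-31.6). The values do not settle whether the replicate numbers pair the libraries. In 18 same-numbered pairs across treatments, the correlation of deviations from the treatment means ran from -0.47 to 0.34, and 5 were above 0.1. The median was 0.03, against -0.01 in 36 differently numbered pairs, and 7 of 12 libraries correlated best with their own number.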
